A study of Homo sapiens with 2 samples.

Results

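The transcripts described here are those of 36 imprinted genes, listed by symbol and all found among the 61487 features counted in both libraries. Imprinted genes are transcribed mainly from the copy inherited from the mother or mainly from the copy inherited from the father, under control of DNA methylation marks that are set in the germ line and copied at each cell division. Many lie in clusters in which a maternally and a paternally expressed gene share a control region, and several are strongly transcribed in neurons and other brain cells. Imprints can be lost or gained in cultured stem cell clones, and the counts used here do not separate the alleles.

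Single-cell RNA-seq (10x Genomics 3' kit, v3) had been run on serotonin neurons (SNs) made from WA09 (H9) human embryonic stem cells, and cells positive for EGFP had been sorted at day 42. Both lines carried EGFP at TPH2, the gene of the neuronal enzyme that starts serotonin synthesis. The WT-labelled library came from the TPH2-EGFP knockin line with no change at FOXA2, and the FKO-labelled library from a line in which a small insertion or deletion had put an early stop codon into FOXA2 before the reporter was added. FOXA2 encodes a forkhead transcription factor of the floor plate, and the comparison asked what its loss changed in SNs. The reporter was introduced separately into each background, so genotype, cell clone and library cannot be told apart. For some stainings in the paper, knockout cells received more purmorphamine, an activator of SHH signalling, than unedited cells. Its main text does not state the dose for the sequenced cells, so the libraries may also differ in dose. With 1 library per condition there were no replicates and no test was made; intervals are exact 95% intervals and cover counting error only.

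The WT-labelled library held 11052 barcodes with 123064653 UMIs (unique molecular identifiers, each standing for 1 captured transcript), and the FKO-labelled library held 8806 barcodes with 70588747 UMIs. After filtering, 5748 and 6978 cells were left (median depths of 12459 and 6927 UMIs), and 21 barcodes occurred in both libraries. The share of barcodes over the limit of 10% mitochondrial UMIs was 40.4% in the WT-labelled library and 13.5% in the FKO-labelled library. Levels are given as pooled CPM, the UMIs of a gene over all kept cells per 1000000 UMIs of those cells. FOXA2 had 334 UMIs (4.35 CPM) in the WT-labelled library and 1264 UMIs (21.8 CPM) in the FKO-labelled library, a log2 ratio of FKO over WT of 2.33 (2.15 to 2.51). Its transcript was thus higher in the FKO-labelled library, and since 3' counts do not show a small insertion or deletion, it does not check the labels; every direction below rests on them. Among other floor plate markers, FOXA1 was also higher (2.45 and 9.07 CPM), and SHH (5.91 and 2.75 CPM) and CORIN (3.36 and 0.794) were lower. Neuronal and serotonergic markers were present in both libraries: STMN2, a microtubule regulator of growing axons, stood at 4391 and 5649 CPM, TPH2 at 198 and 161 CPM, and FEV, a transcription factor of serotonin neurons, at 1584 and 908 CPM. All 8 serotonergic markers passed a CPM of 10, and they did not move together: by CPM 4 were lower in the FKO-labelled library (TPH2, FEV, DDC and MAOB) and 4 higher, GATA3 (595 and 817 CPM), SLC6A4 (21.1 and 43.6), SLC18A2 (19.2 and 50.6) and LMX1B (32.9 and 71.4). Markers of other cells summed to 36.5 and 227 CPM for 5 mesenchymal markers, 34.0 and 56.7 CPM for 3 cycling markers and 6.06 and 8.48 CPM for 3 astroglial markers. Sums stayed under 1 CPM in both libraries for the pluripotent, endothelial and blood markers.

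Of the 36 genes, none with more than 3 UMIs in a library had 0 in its counterpart. Of the 36 genes, 24 reached 10 CPM in 1 or both libraries, and 12 did not. Over all 9676 genes at that level, the log2 ratio of FKO over WT had a median of 0.47, so ratios are given relative to this median unless stated otherwise. None of the 24 imprinted genes stood 10-fold or more apart in this measure, against 0.238% of all genes tested. More than 2-fold higher in the FKO-labelled library were 3 of 24 (12.5%), KCNQ1OT1, L3MBTL1 and IGF2R, beside 5.74% of all genes. More than 2-fold lower were 2 of 24 (8.33%), PHLDA2 and DIRAS3, beside 9.68% of all genes. The other 19 lay within 2-fold of the median, from -0.86 to 0.70, and the median over the 24 was 0.07. L3MBTL1 passed 10 CPM through the FKO-labelled library only (8.14 and 29.01 CPM) and PHLDA2 through the WT-labelled library only (23.4 and 7.32 CPM); both also passed when the mean of the libraries had to reach 10 CPM. These shares rest on 3 and 2 genes, and their distance from the background was not tested.

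**Figure D1:**
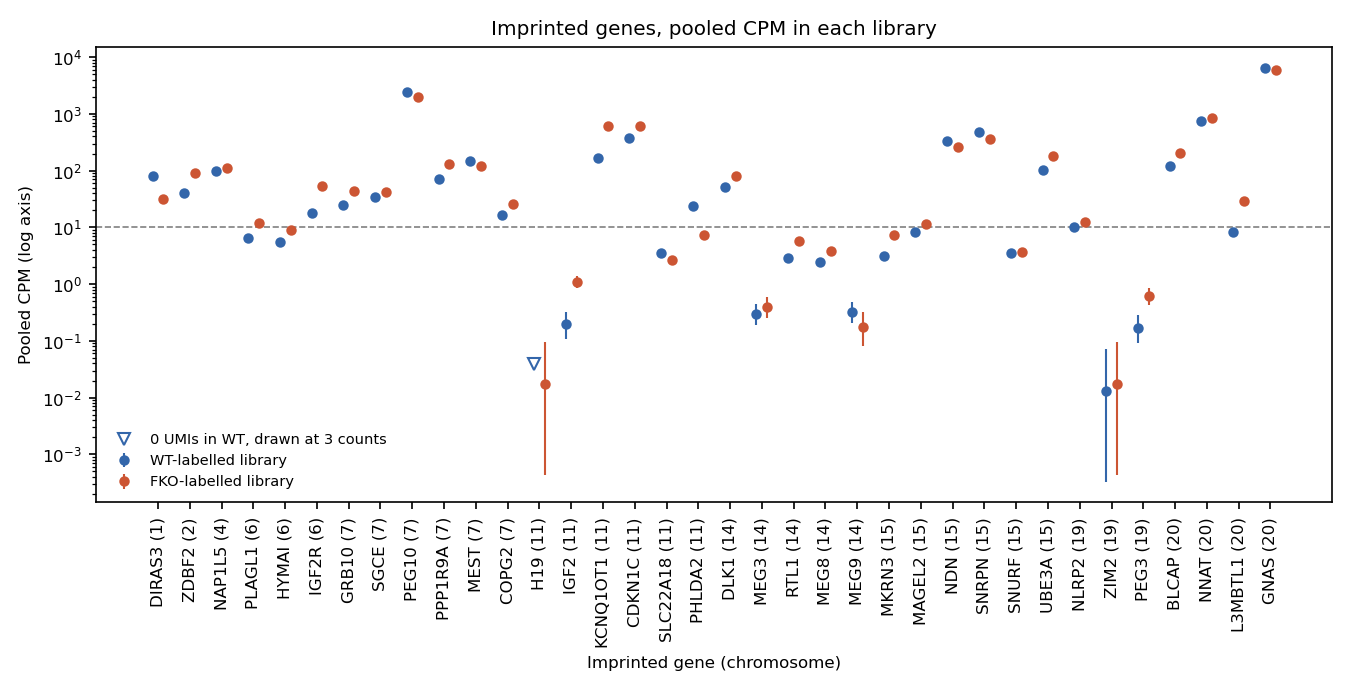
Pooled CPM (log axis) of the 36 imprinted genes, in order of chromosome and position, in the WT-labelled library (blue) and the FKO-labelled library (orange), with exact Poisson 95% intervals. The dashed line marks a CPM of 10, and the open triangle is H19, with 0 UMIs in the WT-labelled library, drawn at 3 counts; the genes near the bottom of the plot are low in both libraries, not in 1 of them.

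**Figure D2:**
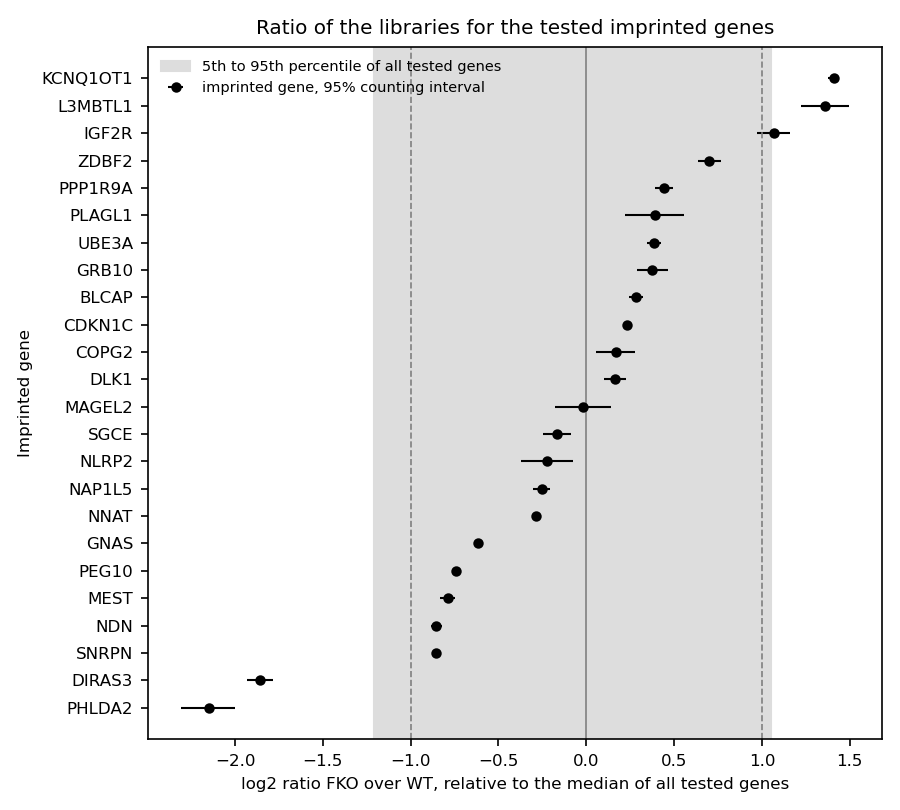
Log2 ratio of FKO over WT for the 24 imprinted genes that reached 10 CPM in 1 or both libraries, relative to the median of all genes tested, with exact 95% counting intervals. Dashed lines mark 2-fold and the grey band runs from -1.21 to 1.05, the 5th to 95th percentile of all genes tested; 5 imprinted genes lie past 2-fold.

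The DLK1-DIO3 cluster on chromosome 14 was unequal in both libraries, with the paternally expressed DLK1 and DIO3 past 10 CPM and MEG3 near 0. Paternally expressed RTL1 and the noncoding RNA MEG8 were both under 10 CPM. DLK1, MEG3 and the other low genes are described at length because their values stood out once seen. DLK1 (chr14:100725705-100738224, GRCh38, GENCODE release 29, plus strand) encodes a Notch-related membrane protein and is expressed from the paternal copy. It had 4015 UMIs (52.3 CPM) in the WT-labelled library and 4714 UMIs (81.4 CPM) in the FKO-labelled library, 0.16 relative to the median. It changed side of the median with at most 5% mitochondrial UMIs (-0.080), in cells with a TPH2 UMI (-0.081) and in the serotonergic set (-0.19). DIO3, the paternally expressed thyroid hormone deiodinase at the other end of the cluster, stood at 69.5 and 119 CPM. RTL1, a retrotransposon-derived paternally expressed gene between them, had 225 and 334 UMIs (2.93 and 5.77 CPM).

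MEG3 (chr14:100779410-100861031, plus strand) is the maternally expressed long noncoding RNA of the cluster and an abundant transcript of many neurons. It had 23 UMIs in each library, which was 0.2995 CPM (0.190 to 0.449) in the WT-labelled library and 0.397 CPM (0.252 to 0.596) in the FKO-labelled library. These UMIs came from 22 of 5748 cells (0.383%, 0.240% to 0.579%) and 23 of 6978 cells (0.330%, 0.209% to 0.494%), with at most 2 in a cell. MEG3 was therefore near 0 in both libraries, and neither library differed from the other beyond counting error. With at most 5% mitochondrial UMIs its log2 ratio was -1.42 (-3.48 to 1.13) on 3 and 8 UMIs, against 0.41 (-0.49 to 1.31) in all kept cells. MEG9, a maternally expressed noncoding RNA further along the same strand, had 25 and 10 UMIs, and MEG8, the host of small nucleolar RNAs, had 185 and 222 UMIs (2.41 and 3.83 CPM). Of the 115 features annotated on the plus strand between DLK1 and DIO3, 105 had 0 UMIs in both libraries. Those 115 features summed to 125 and 205 CPM, nearly all of it from DLK1 and DIO3. On the minus strand, 9 features summed to 39.3 and 43.1 CPM, most of it from DIO3OS with 34.6 and 35.6 CPM. The nearest tested genes outside the imprinted lists, BEGAIN and PPP2R5C, stood at 10.2 and 17.1 CPM and at 47.1 and 70.3 CPM. Whether the counting of reads that overlap several genes lowered MEG3 or MEG8 was not tested.

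The RefSeq promoter windows below (GRCh38.p14, 250 bases before to 50 after a start) are shown for MEG3 and H19, low in both libraries, for SNRPN, high in both, and for DIRAS3 and L3MBTL1, which differed between the libraries. Windows were found for 24 of the 36 genes. Capitals mark TGCCGC on either strand (GCGGCA on the minus strand), the hexamer bound by the imprint maintenance protein ZFP57 when methylated.
MEG3, chr14:100825858-100826157, plus strand: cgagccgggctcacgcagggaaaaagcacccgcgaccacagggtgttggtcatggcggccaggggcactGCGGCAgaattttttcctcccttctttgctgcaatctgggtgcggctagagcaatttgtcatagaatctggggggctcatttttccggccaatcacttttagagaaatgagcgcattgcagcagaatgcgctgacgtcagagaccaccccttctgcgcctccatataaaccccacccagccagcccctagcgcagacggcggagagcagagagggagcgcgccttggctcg
H19, chr11:2001217-2001516, minus strand: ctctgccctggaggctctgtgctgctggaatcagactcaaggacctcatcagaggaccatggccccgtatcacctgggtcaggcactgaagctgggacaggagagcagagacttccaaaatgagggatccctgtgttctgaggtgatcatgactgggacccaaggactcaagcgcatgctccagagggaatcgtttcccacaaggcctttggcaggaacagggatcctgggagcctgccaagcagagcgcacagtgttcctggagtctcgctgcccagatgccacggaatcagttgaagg
SNRPN, chr15:24954737-24955036, plus strand: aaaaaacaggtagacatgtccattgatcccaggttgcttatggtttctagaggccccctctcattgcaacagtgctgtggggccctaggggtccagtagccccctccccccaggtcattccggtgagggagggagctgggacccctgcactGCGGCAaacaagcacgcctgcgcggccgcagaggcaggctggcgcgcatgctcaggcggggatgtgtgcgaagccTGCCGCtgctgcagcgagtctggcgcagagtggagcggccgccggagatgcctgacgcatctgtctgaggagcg
DIRAS3, chr1:68050578-68050877, minus strand: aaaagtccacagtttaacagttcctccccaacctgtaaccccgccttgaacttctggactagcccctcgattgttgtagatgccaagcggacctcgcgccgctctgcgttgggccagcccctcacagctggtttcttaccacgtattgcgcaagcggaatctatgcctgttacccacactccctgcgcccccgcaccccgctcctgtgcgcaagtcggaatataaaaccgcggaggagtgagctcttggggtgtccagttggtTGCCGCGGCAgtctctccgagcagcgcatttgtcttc
L3MBTL1, chr20:43507447-43507746, plus strand: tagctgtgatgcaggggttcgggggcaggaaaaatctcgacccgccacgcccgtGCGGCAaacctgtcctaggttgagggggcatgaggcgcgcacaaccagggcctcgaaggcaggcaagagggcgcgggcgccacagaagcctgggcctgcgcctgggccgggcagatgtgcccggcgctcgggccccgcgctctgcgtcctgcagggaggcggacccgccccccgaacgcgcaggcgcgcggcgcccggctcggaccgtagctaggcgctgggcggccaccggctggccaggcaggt
The hexamer occurred once in the MEG3 and L3MBTL1 windows shown and not in that of H19. The SNRPN window shown, shared with SNURF, held 2 copies, and DIRAS3 held 2 that overlap as a palindrome. SNRPN has 4 windows in the table, with 0, 0, 2 and 1 copies, L3MBTL1 has 2, with 1 and 0, and MEG3 has 3 overlapping ones with 1 each. Among all 35116 windows 16.7% held it, and among the 53 windows of imprinted genes, several of which overlap or belong to the same gene, 23 did (43.4%). CpG dinucleotides numbered 19 in the MEG3 window, 6 in H19, 18 in SNRPN, 21 in DIRAS3 and 35 in L3MBTL1, with a median of 14 over all windows and 18 over those of imprinted genes. A match is a description of the letters in the window, and methylation was not measured.

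PEG3 and its partners on chromosome 19 were also near 0 in both libraries. PEG3 (chr19:56810077-56840728, minus strand), a paternally expressed zinc finger gene, had 13 UMIs (0.169 CPM, 0.0901 to 0.289) in the WT-labelled library and 36 UMIs (0.622 CPM, 0.435 to 0.861) in the FKO-labelled library. Its log2 ratio was 1.88 (0.93 to 2.92) before the median was taken off, on counts that came from 13 and 34 cells. Among cells with at most 5% mitochondrial UMIs, PEG3 had 0 and 16 UMIs, and the ratio against the floor of 3 counts, -0.42, is a lower bound that gives no direction. ZIM2, which shares its first exons with PEG3, had 1 UMI in each library. The listed neighbours MIMT1 and USP29 had 0 UMIs in both and 0 and 1 UMIs respectively. Over the whole window from ZIM2 to USP29 the minus strand summed to 0.182 and 0.639 CPM and the plus strand to 0.0651 and 0.0345 CPM. The genes around the cluster were transcribed: ZNF71, the nearest tested gene on the side of ZIM2, stood at 25.5 and 38.5 CPM, and ZNF264, the nearest on the side of USP29, at 18.5 and 47.9 CPM. NLRP2, an inflammasome-family gene elsewhere on chromosome 19, stood at 10.4 and 12.3 CPM.

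H19 and IGF2 on chromosome 11 formed the last low pair. H19 (chr11:1995176-2001470, minus strand), a maternally expressed noncoding RNA, had 0 UMIs in the WT-labelled library, which at a floor of 3 counts allows up to 0.0391 CPM, and 1 UMI in the FKO-labelled library. IGF2, the paternally expressed growth factor of fetal tissue, had 15 UMIs (0.195 CPM) in the WT-labelled library and 64 UMIs (1.11 CPM) in the FKO-labelled library, a log2 ratio of 2.50 (1.67 to 3.42). With the mitochondrial limit set to 5%, its log2 ratio on 5 and 22 UMIs was -0.70 (-2.13 to 1.06), an interval that gives no direction. IGF2 belonged to a minority of cells: among sets of at least 50 cells it was the only gene of the 36 more than 10-fold apart. In the FKO-labelled library, 36 of its UMIs came from 78 collagen-rich cells (49.0 CPM) and 6 from 3507 serotonergic cells (0.184 CPM), a 266-fold difference (111 to 774). In the WT-labelled library, 6 came from 67 cells with floor plate genes (5.77 CPM) and 1 from 4013 serotonergic cells, a ratio of 321 with a counting interval of 38.9 to 14766. Cells of several sets, left out of this comparison, held 7 IGF2 UMIs (6.89 CPM) in the WT-labelled library and 10 (6.43 CPM) in the FKO-labelled library. DIO3, from the list of other imprinted genes, stood at 69.2 CPM in serotonergic cells and 1.92 CPM (2 UMIs) in cells with floor plate genes of the WT-labelled library. The collagen-rich cells themselves moved with the label, at 5 of 5748 cells (0.0870%) against 78 of 6978 (1.12%). The 5 mesenchymal markers, all past a CPM of 10, summed to 36.5 and 227 CPM, with COL1A2 the highest in the FKO-labelled library at 85.2 CPM (2.75 in the WT-labelled library), and LUM and DCN present in both libraries. In the serotonergic set alone the log2 ratio of IGF2 was 3.36 (0.31 to 8.88) on 1 and 6 UMIs, and in cells with a TPH2 UMI 2.41 (0.90 to 4.22) on 5 and 16. The ratio without the collagen-rich cells was not computed.

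Next to this pair, the KCNQ1OT1 domain of chromosome 11 held both extremes among the 24 genes in all kept cells, the one furthest above the median and the one furthest below it. L3MBTL1 stood above KCNQ1OT1 with at most 5% mitochondrial UMIs (1.39 and 1.18) and with thinning (1.425 and 1.380). The same held relative to genes of similar length (1.23 and 1.14). KCNQ1OT1 (chr11:2608328-2699994, minus strand) is a paternally expressed antisense RNA that silences its neighbours on the same copy. It had 12828 UMIs (167 CPM, 164 to 170) in the WT-labelled library and 35692 UMIs (616 CPM, 610 to 623) in the FKO-labelled library, a log2 ratio of 1.88 (1.85 to 1.91) and 1.41 relative to the median. The gene ranked 194 from the top of 9676 genes. With each cell thinned to 2000 UMIs, 23.9% (22.8% to 24.98%) of cells labelled WT and 59.5% (58.4% to 60.7%) of cells labelled FKO had a KCNQ1OT1 UMI; without thinning the shares were 64.4% and 86.7%.

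PHLDA2 (chr11:2928273-2929455, minus strand), a maternally expressed inhibitor of placental growth, was lower in the FKO-labelled library. It had 1797 UMIs (23.4 CPM, 22.3 to 24.5) in the WT-labelled library and 424 UMIs (7.32 CPM, 6.64 to 8.05) in the FKO-labelled library, a log2 ratio of -1.68 (-1.83 to -1.52) and -2.15 relative to the median, 24th from the bottom. The share of thinned cells with a UMI was 3.65% (3.17% to 4.17%) and 1.24% (0.991% to 1.53%), and 17.7% and 5.03% unthinned. The other maternally expressed genes of the domain differed less. CDKN1C, the cell cycle inhibitor, stood at 370 and 604 CPM, 0.23 relative to the median. SLC22A18, a transporter gene under 10 CPM, had 276 and 157 UMIs (3.59 and 2.71 CPM), -0.88 relative to the median. It was past 2-fold lower in cells with a TPH2 UMI (-1.035), in the serotonergic set (-1.05) and with at most 5% mitochondrial UMIs (-1.88). In the serotonergic set this rests on 188 and 74 UMIs, a log2 ratio of -0.57 (-0.98 to -0.18). That interval reaches under 2-fold once the median is taken off. The 5% limit kept 340 and 2888 cells. Within 1 Mb of PHLDA2, 11 tested genes outside the imprinted lists had a median of -0.15, with 2 over 2-fold lower, and the nearest, KCNQ1-AS1 and NAP1L4, stood at 0.24 and -0.30. Within 1 Mb of KCNQ1OT1, 10 such genes had a median of -0.33 and none was over 2-fold higher.

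DIRAS3 (chr1:68045896-68051631, minus strand), a paternally expressed small GTPase that restrains growth, was the other gene more than 2-fold lower in the FKO-labelled library. It had 6237 UMIs (81.2 CPM, 79.2 to 83.3) in the WT-labelled library and 1804 UMIs (31.2 CPM, 29.7 to 32.6) in the FKO-labelled library, a log2 ratio of -1.38 (-1.46 to -1.31) and -1.86 relative to the median. Thinned cells with a UMI made up 13.5% (12.6% to 14.4%) and 5.35% (4.83% to 5.91%), and unthinned cells 43.4% and 15.5%. The transcript was thus lower but present in the FKO-labelled library, with up to 24 UMIs in 1 cell against 30 in the WT-labelled library. The 4 tested genes within 1 Mb had a median of -0.54, with 1 over 2-fold lower, and GNG12 and WLS on either side stood at -0.66 and -0.42.

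L3MBTL1 and IGF2R completed the genes past 2-fold. L3MBTL1 (chr20:43489442-43550950, plus strand), a paternally expressed chromatin-compacting protein gene, had 625 UMIs (8.14 CPM, 7.51 to 8.80) and 1680 UMIs (29.01 CPM, 27.6 to 30.4), a log2 ratio of 1.83 (1.70 to 1.97) and 1.36 relative to the median. IGF2R (chr6:159969099-160113507, plus strand), the receptor that clears IGF2 and in humans imprinted in some individuals only, had 1397 UMIs (18.2 CPM, 17.2 to 19.2) and 3067 UMIs (53.0 CPM, 51.1 to 54.9), a log2 ratio of 1.54 (1.45 to 1.63) and 1.07 relative to the median. The interval of IGF2R reaches below 2-fold once the median is taken off. The thinned shares of cells were 1.58% and 5.67% for L3MBTL1 and 3.52% and 9.81% for IGF2R, and the unthinned shares 10.1% and 19.7%, and 20.2% and 31.7%. AIRN, the antisense RNA that overlaps IGF2R, had 8 and 28 UMIs. The nearest tested neighbours stood at -0.03 (SRSF6) and -0.94 (IFT52) for L3MBTL1, and at -0.93 (MRPL18) and 0.27 (MAP3K4) for IGF2R. None of these 4 neighbours was past 2-fold, although 1 of 11 tested genes within 1 Mb of L3MBTL1 was over 2-fold higher; within 1 Mb of IGF2R, 0 of 7 were.

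The chromosomes as a whole did not move with these genes. Over the 10 chromosomes that carry an imprinted gene listed here, the median ratio of the tested genes lay between -0.15 (chromosome 11) and 0.10 (chromosome 15). Gene length, in contrast, moved with the ratio across all genes: the median rose from -0.75 in the bin of the shortest genes to 0.46 in that of the longest. KCNQ1OT1, L3MBTL1 and IGF2R are long genes (91.7, 61.5 and 144 kb), and PHLDA2 and DIRAS3 are short ones (1.18 and 5.74 kb). Against the median of their own length bin (10 bins of equal gene number), in a comparison chosen after seeing the data, the values were 1.14 for KCNQ1OT1, 1.23 for L3MBTL1, 0.70 for IGF2R, -1.40 for PHLDA2 and -1.34 for DIRAS3. IGF2R thus fell under 2-fold, and SNRPN, at -1.22, passed it, which made 2 genes higher and 3 lower, beside 5.83% and 4.92% of all genes in that measure. The nuclear RNAs NEAT1 and MALAT1, singled out after their values were seen, stood at 2.04 and -0.43 relative to the median of all genes. The housekeeping genes GAPDH and ACTB, singled out in the same way, stood at -1.78 and -1.07, and their part in the values above was not tested. The part of gene length and of the mitochondrial share in the library differences was not tested.

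The Prader-Willi and Angelman region of chromosome 15 was transcribed in both libraries. SNRPN and NDN, a paternally expressed splicing factor gene and a paternally expressed MAGE gene of neurons, stood at 472 and 334 CPM in the WT-labelled library and at 362 and 257 CPM in the FKO-labelled library, -0.86 and -0.85 relative to the median. MAGEL2, a paternally expressed gene next to NDN, stood at 8.24 and 11.3 CPM (-0.02). MKRN3, a ubiquitin ligase gene that restrains puberty, had 237 and 424 UMIs (3.09 and 7.32 CPM, 0.77), and SNURF, which shares a transcript with SNRPN, had 275 and 215 UMIs, so that the split between SNRPN and SNURF is uncertain. UBE3A, the ubiquitin ligase expressed from the maternal copy in neurons, stood at 101 and 184 CPM, 0.39 relative to the median. SNHG14, the long paternally expressed RNA that runs through the snoRNA genes and antisense to UBE3A, stood at 273 and 967 CPM, 1.35 relative to the median and 0.89 relative to genes of its length. PWRN1, another noncoding RNA of the region, stood at 3.59 and 10.9 CPM, 1.13 relative to the median. The paternally expressed genes of the region thus lay on both sides of the median. Relative to genes of their length, NDN stood at -0.11, UBE3A at 0.12, MAGEL2 at 0.73 and SNRPN at -1.22.

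On chromosome 7, PEG10 and 5 other genes of the 36 were present in both libraries. PEG10, a paternally expressed retrotransposon-derived gene, stood at 2389 CPM in the WT-labelled library and 1986 CPM in the FKO-labelled library, -0.74 relative to the median. SGCE, the sarcoglycan gene divergent from it, stood at 33.8 and 41.8 CPM and PPP1R9A, a neuronal actin-binding protein gene, at 69.8 and 132 CPM. MEST, a paternally expressed hydrolase-like gene, stood at 151 and 121 CPM, and COPG2, a coatomer gene that overlaps its end on the other strand, at 16.3 and 25.4 CPM. GRB10, an adaptor that dampens insulin signalling, stood at 24.4 and 43.9 CPM. These 6 genes lay between -0.79 and 0.44. TFPI2, a protease inhibitor gene near PEG10 from the list of other imprinted genes, was under 10 CPM, with 187 and 41 UMIs (2.44 and 0.708 CPM), -2.26 relative to the median.

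The remaining genes lay on chromosomes 2, 4, 6 and 20. GNAS, which encodes the stimulatory G protein subunit and several overlapping transcripts that the counts merge, stood at 6485 and 5871 CPM, -0.62 relative to the median. With at most 5% mitochondrial UMIs its log2 ratio by CPM turned from -0.14 to 0.12, and that of PEG10 from -0.27 to 0.20, while both stayed below the median (-0.36 and -0.28). NNAT, a paternally expressed proteolipid of developing neurons inside an intron of BLCAP, stood at 749 and 853 CPM, and BLCAP at 118 and 200 CPM. NAP1L5, a nucleosome assembly gene, stood at 96.9 and 113 CPM. ZDBF2, a zinc finger gene, stood at 40.7 and 92.0 CPM, 0.70 relative to the median. PLAGL1, a zinc finger regulator, and HYMAI, the noncoding RNA that starts with it, were low, with 503 and 422 UMIs in the WT-labelled library and 691 and 515 in the FKO-labelled library. With CPM taken as they are, 17 of the 24 genes were higher and 7 lower in the FKO-labelled library; relative to the median 12 were above and 12 below, and SGCE, NNAT, NAP1L5, NLRP2 and MAGEL2 changed side.

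Cell sets were made from markers that are not imprinted genes. The serotonergic set (at least 1 UMI each of TPH2, FEV and GATA3) held 4013 cells of the WT-labelled library (69.8%) and 3507 of the FKO-labelled library (50.3%), and cells in no set 27.2% and 45.1%, at median depths of 12860 and 7492 UMIs in the serotonergic set; a set that needs UMIs follows depth. Within the serotonergic set the 4 differences other than IGF2R stayed past 2-fold relative to that set's own median. Of all genes tested in that set, 6.48% were over 2-fold higher and 10.76% over 2-fold lower. KCNQ1OT1 stood at 168 and 647 CPM there (1.47), L3MBTL1 at 8.37 and 31.3 CPM (1.43), PHLDA2 at 23.5 and 6.87 CPM (-2.25) and DIRAS3 at 92.9 and 35.98 CPM (-1.84). IGF2R stood at 17.8 and 47.1 CPM (0.93), under 2-fold. All kept cells include the serotonergic set, which holds most of their UMIs, so those comparisons are not independent. In cells in no set, relative to their own median, KCNQ1OT1 stood at 164 and 574 CPM (1.34) and L3MBTL1 at 7.95 and 27.7 CPM (1.33). PHLDA2 stood there at 26.1 and 7.84 CPM (-2.20), DIRAS3 at 56.3 and 26.3 CPM (-1.56) and IGF2R at 17.85 and 56.45 CPM (1.19). The 4 genes other than IGF2R were thus past 2-fold in the same direction in serotonergic cells and in cells in no set.

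Levels were also compared across the small sets. The floor plate set (SHH or CORIN, at a limit of 2 UMIs) held 67 and 30 cells. The set with ISL1, LHX1 or SLC17A6 but no TPH2 UMIs, at a limit of 3 UMIs, held 33 and 92. The cycling set, also at a limit of 3, held 26 and 52. Cells that met several sets are counted apart from these, and 127 and 89 kept cells had an SHH UMI. FEV stood at 173 CPM in the collagen-rich set and 1025 CPM in the serotonergic set of the FKO-labelled library. The share of RNA from other cells in the droplets was not measured. DLK1 spread most among the 24 genes in that library, from 63.1 CPM in the serotonergic set to 546 CPM in the collagen-rich set, an 8.65-fold range. In cycling cells it stood at 3.68 CPM on 2 UMIs in the WT-labelled library and at 349 CPM on 199 UMIs in the FKO-labelled library. DIRAS3 was highest in the serotonergic set of both libraries and did not differ beyond counting error, by CPM, in cells of several sets, with 27 and 42 UMIs (26.6 and 27.0 CPM, log2 ratio 0.02, -0.71 to 0.78), in the floor plate set, with 14 and 7 UMIs (13.5 and 20.6 CPM), in the ISL1, LHX1 or SLC17A6 set, with 5 and 12 UMIs (10.7 and 15.3 CPM), or in cycling cells, with 6 and 3 UMIs (11.1 and 5.27 CPM). PHLDA2, on few UMIs, did not stand lower in the FKO-labelled library in cycling cells, with 2 and 10 UMIs (3.68 and 17.6 CPM, log2 ratio 2.25, 0.02 to 5.48), or in cells of several sets, with 3 and 15 UMIs (2.95 and 9.64 CPM, 1.71, -0.11 to 4.14). PHLDA2 was lower, also on few UMIs, in the ISL1, LHX1 or SLC17A6 set, with 7 and 2 UMIs (-2.56, -5.86 to -0.17). It was also lower in the collagen-rich set, with 5 and 5 UMIs (-3.05, -5.17 to -0.93), where the WT-labelled library held 5 cells. In the floor plate set PHLDA2 had 3 and 1 UMIs and got no ratio. Both PHLDA2 and DIRAS3 were lower in cells in no set, as given above. Across the sets with at least 50 cells, the level was highest in the serotonergic set for 18 of the 24 genes in the WT-labelled library (2 sets) and 16 in the FKO-labelled library (4 sets). This comparison leaves out cells in no set and cells of several sets, and has no share over all genes beside it. The median range between sets was 2.06-fold and 2.35-fold.

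**Figure D3:**
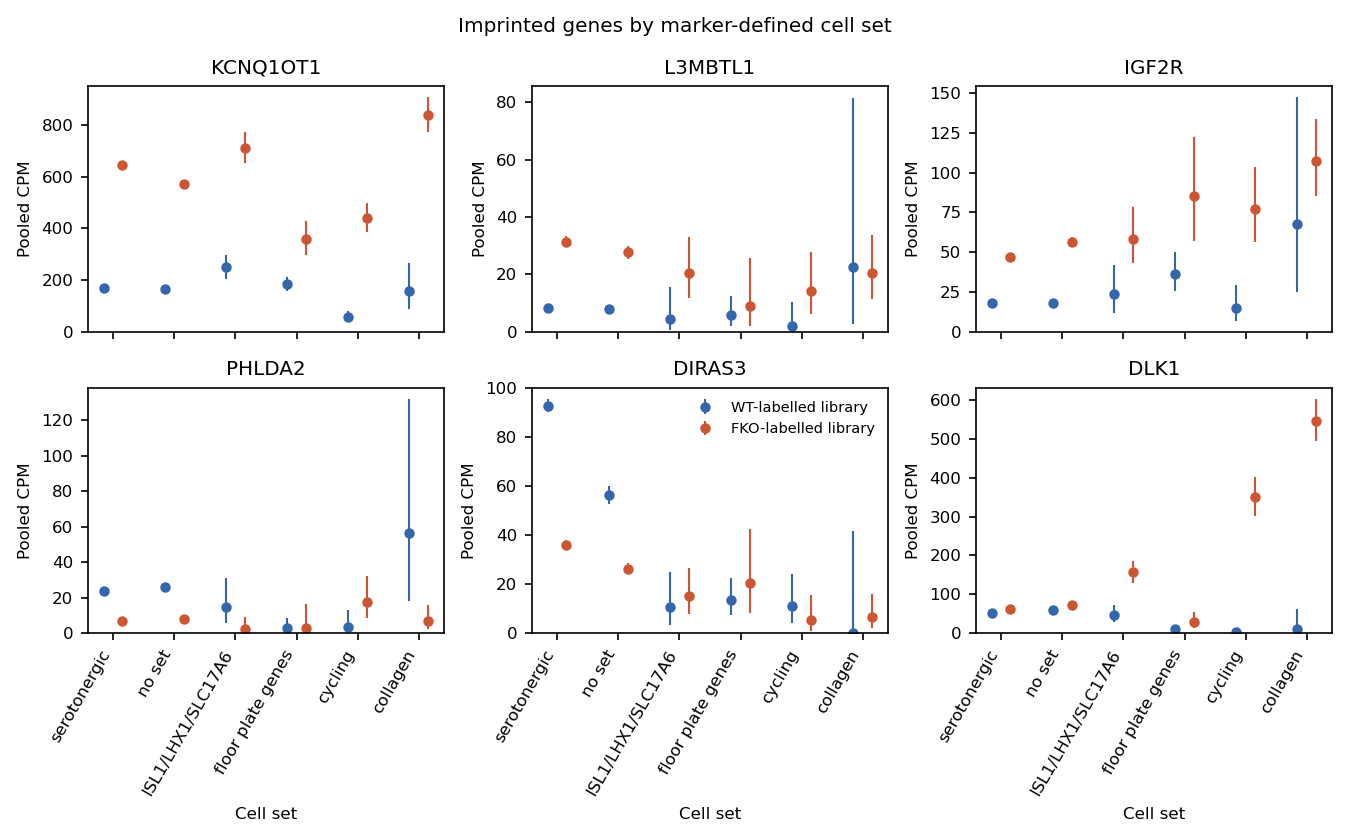
Pooled CPM of the 5 imprinted genes past 2-fold and of DLK1 in 6 cell sets defined by markers, in the WT-labelled library (blue) and the FKO-labelled library (orange), with exact Poisson 95% intervals. In the serotonergic set KCNQ1OT1 stands at 168 and 647 CPM and DIRAS3 at 92.9 and 35.98 CPM; the collagen-rich set of the WT-labelled library holds 5 cells.

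Thinned UMIs per serotonergic cell show how the transcripts were spread over cells. KCNQ1OT1 had a mean of 0.320 UMIs (SD 0.663 over cells) in the WT-labelled library and 1.21 (SD 1.39) in the FKO-labelled library, and 23.9% and 61.7% of these cells had at least 1. PEG10 had a median of 4 UMIs in both libraries, with means of 5.08 (SD 4.35) and 4.40 (SD 3.88). GNAS had a median of 12 UMIs in both. The KCNQ1OT1 difference was therefore spread over many cells.

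Other imprinted genes, from a list of 41 of which 36 were among the features, were compared in the same way. Of these 36, 12 passed a CPM of 10 in either library; SNHG14 and PWRN1 were over 2-fold higher, and NDUFA4, a respiratory chain gene, was over 2-fold lower, at 1488 and 857 CPM (-1.27). These are 16.7% and 8.33% of the 12, beside 5.74% and 9.68% of all genes, and PWRN1 passed the floor through the FKO-labelled library only. Under the floor, ASB4 had 5 and 0 UMIs and ANO1 0 and 5. The median over the 12 was 0.14, and none stood 10-fold apart. KCNQ1, the channel gene in which KCNQ1OT1 lies antisense, had 12 and 35 UMIs.

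Genes that maintain imprints or set and remove DNA methylation were also compared. ZFP57, DNMT3L and DPPA3 had 0 UMIs in both libraries, which at the floor of 3 counts allows up to 0.0391 CPM in the WT-labelled library and 0.0518 CPM in the FKO-labelled library. ZNF445, the other zinc finger protein that maintains imprints, stood at 32.8 and 77.7 CPM, 0.77 relative to the median. DNMT1, the maintenance methyltransferase, stood at 75.7 and 100 CPM, and TRIM28, the corepressor recruited by both zinc finger proteins, at 66.4 and 76.1 CPM. Of the 20 genes, 14 passed a CPM of 10, and 0 of 14 lay past 2-fold in either direction, beside 5.74% of all genes higher and 9.68% lower, with a range of -0.28 to 0.77.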

How the data were processed

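The deposited values are UMI counts for each gene and barcode, not normalized, which the authors made with Cell Ranger (7.0 in the submitters' processing notes, 7.1.0 in the file headers) on GRCh38; the annotation release is not given in the sources used here. Barcodes under 1000 UMIs or 500 genes, or over 10% mitochondrial UMIs, were left out, and doublets were removed within each library by the highest Scrublet scores (scanpy 1.11.5) at 0.8% per 1000 barcodes, 977 and 620 barcodes. Positions came from GENCODE release 29, matched by Ensembl identifier for 94.8% of features.

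UMIs were summed over kept cells (76789025 and 57905157) and scaled to CPM with numpy 2.4.6 and scipy 1.17.1. Exact intervals were of the Poisson kind for CPM and Clopper-Pearson for shares; those of ratios were conditional on the sum of both counts. A count of 0 stood at 3 counts in ratios, and genes with at most 3 in both libraries got no ratio. Thinning left out 43 and 116 cells under 2000 UMIs. The ratio procedure was tested on simulated counts.

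Named in full were imprinted genes over 2-fold from the median of all genes in either direction, or over 10-fold apart between cell sets; the others are given by their levels, with the targeted gene, markers, nearest tested genes within 1 Mb and fixed lists of other imprinted and imprint maintenance genes. The genes and lists were chosen with earlier results of these data known. Alternatives changed the cell limits, doublet treatment, cells used, depth, weighting, CPM floor and scaling. Overlapping genes (SNRPN with SNURF, PEG3 with ZIM2, PLAGL1 with HYMAI) share sequence, and counts cannot be split between them with certainty.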

Additional observations from a re-analysis of the deposited data

How the results depend on the processing

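Under 13 other settings and 1 added after seeing the data, no imprinted gene tested reached a 10-fold difference. Those over 2-fold higher numbered 2 to 4 and those over 2-fold lower 1 to 3. Over all genes, the shares ran from 5.07% to 20.7% higher and from 1.74% to 14.4% lower. With a floor of 1 CPM, 3 were higher, beside 11.7% of all genes, with IGF2 among them and IGF2R no longer. With a floor of 50 CPM in 1 or both libraries, 16 imprinted genes were left. Of these, 2 were over 2-fold higher and 1 was over 2-fold lower, beside 6.29% and 9.665% of all genes. L3MBTL1 and PHLDA2 lie under that floor. The median over the imprinted genes tested, 0.07, was -0.028 with at most 5% mitochondrial UMIs (340 and 2888 cells kept), -0.047 in cells with a TPH2 UMI, -0.077 in the serotonergic set, 0.15 with cells thinned to 2000 UMIs and 0.0045 relative to genes of similar length, the added setting; the cause was not tested. By library total alone it was 0.55, since the shift of 0.47 was not taken off, and 20.7% of all genes were then over 2-fold higher and 1.74% lower, beside 4 and 2 imprinted genes. KCNQ1OT1, L3MBTL1, PHLDA2 and DIRAS3 were past 2-fold in 9 of 9 choices of cells and weights, from 1.18 to 1.47, 1.25 to 1.43, -2.25 to -1.97 and -1.96 to -1.41, and IGF2R in 6 of 9, from 0.93 to 1.07. Of 305 values of single genes under other choices of cells and weights, 225 stayed within the counting interval, 80 moved outside it, and 0 reversed, a label given only to the 5 genes past both 10 CPM and 2-fold. With at most 5% mitochondrial UMIs the sign of the log2 ratio by CPM changed for PEG10, from -0.27 to 0.20, GNAS, from -0.14 to 0.12, and SNURF, from 0.05 to -0.07 (SNURF also in 3 other settings), and, relative to the median, DLK1 (0.16 to -0.080), PLAGL1 (0.39 to -0.33), MAGEL2 (-0.02 to 0.16) and NLRP2 (-0.22 to 0.00089) changed side. Among genes with few UMIs, it changed there for IGF2, from 2.50 to -0.70 (-2.13 to 1.06), and MEG3, from 0.41 to -1.42 (-3.48 to 1.13). With thinning it changed for MEG9, from -0.91 to 0.15 (-2.42 to 2.92, 3 and 4 UMIs). These intervals give no direction, and the cause was not tested. For PEG3, at 1.88 in all kept cells, the 5% limit left only a lower bound of -0.42 on 0 and 16 UMIs. This bound shows no change of sign. Depth limits H19 and ZIM2, at 0 or 1 UMI, MEG3 and MEG9 in both libraries, and PEG3 and IGF2 in the WT-labelled library, at 25 UMIs or fewer.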
